A study of Sus scrofa domesticus with 6 samples.

Results

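The circadian clock genes considered here were DBP, PER1, PER2, PER3, CRY1, CRY2, NR1D1, NR1D2, ARNTL (also called BMAL1) and CLOCK, chosen by gene symbol. Each of the 10 symbols matched 1 row of a table of 30352 named pig genes, and all 10 passed the filter on low counts. The set was drawn up with the low level of DBP in pravastatin-treated animals already known. The values of the pravastatin group are therefore given as a description for these genes, and the comparison of irradiated with unirradiated animals is the one that was tested.

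RNA was sequenced from the small intestine of 6 wild type Gottingen minipigs aged 6 months, a miniature pig strain used as a large-animal model of radiation injury. The IR_Pra group (2 animals) received 15 Gy of cobalt gamma rays to the abdomen and 40 mg of oral pravastatin, a cholesterol-lowering statin, per day for 2 weeks. The IR group (2 animals) received the same irradiation alone, and the control group (2 animals) was not irradiated. Tissue was taken on day 14. Whole tissue was sequenced, so fewer cells of a type and less RNA per cell cannot be told apart. The labels used here state the day of collection and no hour, so a shift in level and a shift in daily phase cannot be told apart either.

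The mammalian clock is a transcriptional loop that runs in most cells, the intestinal epithelium included. CLOCK or its relative NPAS2 pairs with ARNTL and switches on genes with an E-box in their promoters, among them the PER, CRY, NR1D and DBP genes. PER and CRY proteins then block the pair, NR1D1 and NR1D2 repress ARNTL, and DBP carries the rhythm to output genes. Transcripts of ARNTL and of the E-box targets peak at opposite times of day in most tissues studied in rodents.

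Libraries held between 48600424 and 73975174 counts. The IR animals differed from each other in epithelial and smooth muscle marker levels. They differed from the rest in smooth muscle, B cell, macrophage and enteric glia marker levels. The summed level of 8 smooth muscle markers was 19518 and 13473 CPM in IR_Pra, 31805 and 67006 in IR, and 5734 and 11759 in control, where CPM is the read count scaled to a common library size. The 8 epithelial markers summed to 8467 and 6851 CPM in IR_Pra, 6861 and 1482 in IR, and 7354 and 8297 in control, so IR 2 stood apart. The 6 B cell markers with a row summed to 131.7 and 335.2 CPM in IR_Pra, 16.4 and 15.3 in IR, and 397.95 and 238.7 in control. The 7 macrophage markers summed to 908.2 and 1349 CPM in IR_Pra, 2603 and 2979 in IR, and 536.1 and 545.6 in control. The 4 enteric glia markers summed to 29.5 and 35.6 CPM in IR_Pra, 77.4 and 156.1 in IR, and 23.7 and 30.2 in control. The defining genes of epithelium were detected in every library, and the part of cell make-up in the clock gene values was not tested.

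Compared per length as FPKM (the authors' unit, fragments scaled to transcript length and library size), PER1 had the highest mean of the clock transcripts in every group. In IR_Pra PER1 averaged 16.1 ± 0.714 FPKM (SD, n = 2), DBP stood at 10.8 ± 1.27 FPKM within the spread of CRY2 at 11.2 ± 1.90, and PER2 was lowest at 1.92 ± 0.444 FPKM. In IR PER1 averaged 20.0 ± 2.04 and DBP 17.5 ± 1.58 FPKM, and their libraries overlapped. CLOCK had the lowest mean in IR at 0.980 ± 0.508 FPKM and overlapped PER2. In control PER1 averaged 28.2 ± 7.48 and DBP 26.8 ± 5.44 FPKM, values within each other's spread. CRY2 at 15.0 ± 1.84, NR1D2 at 13.3 ± 2.86 and NR1D1 at 10.97 ± 3.98 FPKM followed in control, below both libraries of DBP and overlapping among themselves. PER3, ARNTL and PER2 came next there, with means of 6.79, 6.07 and 4.81 FPKM and no overlap between neighbours. CLOCK and CRY1 were lowest in control at 2.99 and 2.93 FPKM and overlapped.

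**Figure D1:**
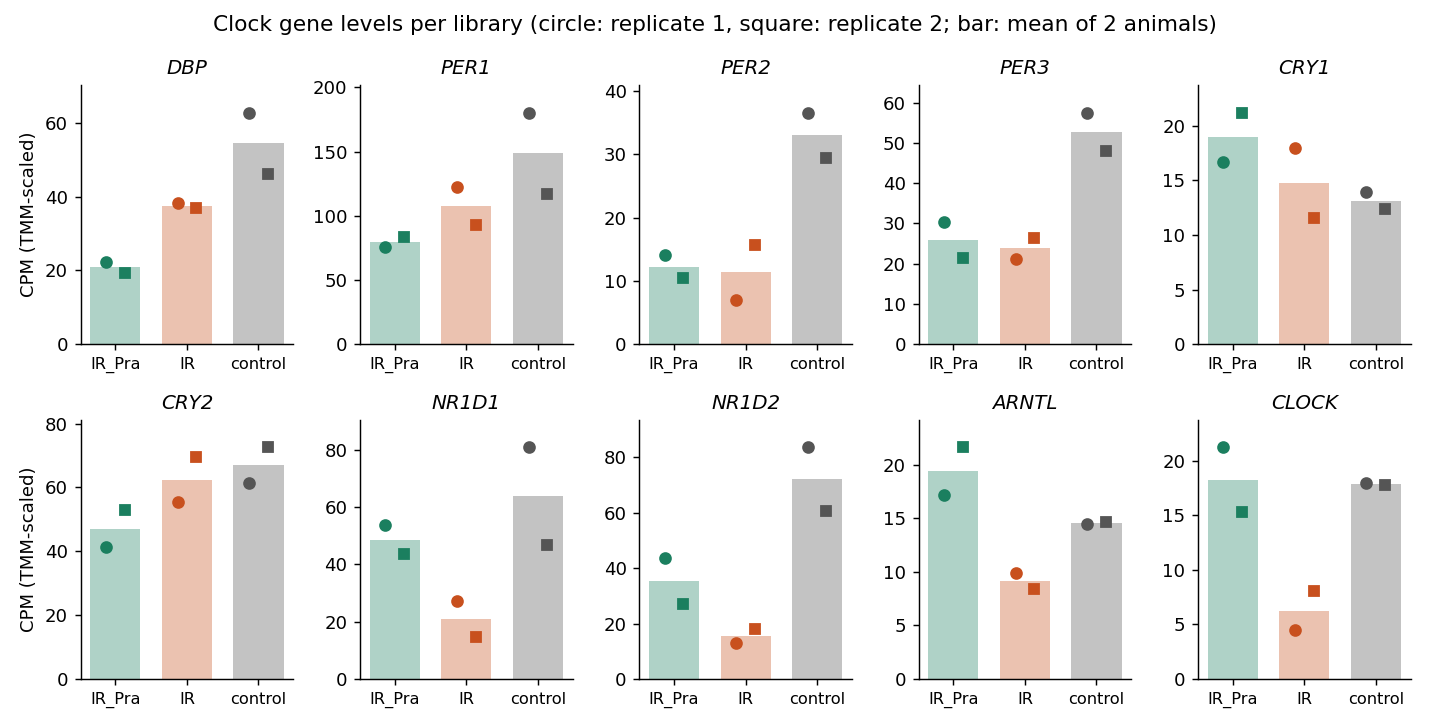
CPM (vertical axis, from 0) of each clock gene in IR_Pra, IR and control, with a point per animal (circle, replicate 1; square, replicate 2) and a bar at the mean of 2 animals. DBP is lowest in IR_Pra at 22.4 and 19.4 CPM, while NR1D1, NR1D2, ARNTL and CLOCK are lowest in IR.

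DBP (Entrez 100524747, chromosome 6, 53986955 to 53993044 on Sscrofa11.1) is a PAR bZIP transcription factor, a direct target of the CLOCK and ARNTL pair that drives genes through D-box elements. It measured 22.4 and 19.4 CPM in IR_Pra, 38.3 and 36.8 CPM in IR, and 62.8 and 46.3 CPM in control. The values of the 3 groups did not overlap, with IR_Pra lowest and control highest. The IR_Pra mean was 38.3% and the IR mean 68.9% of the control mean. Its fitted log2 fold change in IR_Pra was -0.84 ± 0.25 against IR and -1.38 ± 0.25 against control (± SE), both given without a test because this low level chose the set. The difference between IR and control was tested and missed the threshold (log2 fold change -0.54 ± 0.25, adjusted p = 0.204), and without control 1 the value was -0.26.

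PER1 (Entrez 100620648, chromosome 12, 53361863 to 53376723), a repressor of the loop that also responds to hormones and stress, was the member closest to DBP in pattern. It measured 76.1 and 83.7 CPM in IR_Pra, 122.7 and 92.7 CPM in IR, and 180.3 and 117.2 CPM in control. IR_Pra lay below both other groups, and IR and control overlapped. Its log2 fold change was -0.47 ± 0.30 in IR against control (adjusted p = 0.336), -0.43 ± 0.30 in IR_Pra against IR and -0.90 ± 0.30 in IR_Pra against control. The value for IR against control was -0.073 without control 1, -0.28 without IR 2 and -0.18 with a length trend removed. The value for IR_Pra against IR was -0.21 without IR 1, -0.26 with library size alone and -0.75 with a length trend removed, and that for IR_Pra against control was -0.58 without control 1.

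PER2 and PER3 were lower than in control in both irradiated groups. PER2 (Entrez 100154609, chromosome 15, 137793419 to 137837854), the PER protein whose loss shortens or abolishes rhythm in mice, measured 14.1 and 10.4 CPM in IR_Pra, 7.06 and 15.7 CPM in IR, and 36.6 and 29.5 CPM in control. The irradiated groups overlapped and control lay above both. The difference of IR from control missed the threshold (log2 fold change -1.54 ± 0.43, adjusted p = 0.0806), and in IR_Pra against control it was -1.43 ± 0.43. PER3 (Entrez 100627898, chromosome 6, 68487634 to 68548718), the member of the family least needed for rhythm in mice, measured 30.4 and 21.4 CPM in IR_Pra, 21.2 and 26.3 CPM in IR, and 57.5 and 48.1 CPM in control. Its irradiated groups also overlapped below control. PER3 had a log2 fold change of -1.15 ± 0.28 in IR against control (adjusted p = 0.0632) and -1.03 ± 0.28 in IR_Pra against control. Between the irradiated groups, PER2 and PER3 had log2 fold changes of 0.11 ± 0.42 and 0.12 ± 0.27 in IR_Pra against IR, and both signs turned when IR 1 was left out (-0.35 and -0.021).

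The cryptochromes CRY1 and CRY2, the strongest repressors of the loop, had the log2 fold changes nearest to 0 in IR against control. CRY2 (Entrez 100517750, chromosome 2, 16587101 to 16620380) measured 41.2 and 52.8 CPM in IR_Pra, 55.3 and 69.6 CPM in IR, and 61.4 and 72.5 CPM in control. IR_Pra lay below the other groups, which overlapped. Its log2 fold change was -0.10 ± 0.25 in IR against control (adjusted p = 0.819) and -0.51 ± 0.25 in IR_Pra against control. CRY1 (Entrez 100520380, chromosome 5, 13275265 to 13429566) measured 16.6 and 21.2 CPM in IR_Pra, 17.96 and 11.6 CPM in IR, and 13.9 and 12.4 CPM in control. IR overlapped both other groups, while IR_Pra lay above control. The log2 fold change of IR against control was 0.17 ± 0.31 on counts (adjusted p = 0.746) and -0.38 on the log2(FPKM + 1) scale, so its direction depended on the unit. The annotated span of CRY1 overlaps MTERF2, a mitochondrial transcription factor gene, and TMEM263, and reads shared between them could not be assigned here. TMEM263, which encodes a membrane protein, had more counts than CRY1 in every library, with 1646 and 1477 in IR_Pra, 1321 and 2105 in IR, and 1454 and 1100 in control (IR against control, log2 fold change 0.30 ± 0.27, adjusted p = 0.494). MTERF2 was far less abundant, with 176 and 85 counts in IR_Pra, 6 and 20 in IR, and 167 and 105 in control (IR against control, log2 fold change -3.55 ± 0.70, adjusted p = 0.0473).

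The paired nuclear receptors NR1D1 and NR1D2 (REV-ERB alpha and beta), heme-binding repressors of ARNTL, were lowest in IR. NR1D2 (Entrez 100621076, chromosome 13, 10756954 to 10791219) measured 43.7 and 27.0 CPM in IR_Pra, 12.8 and 18.2 CPM in IR, and 83.6 and 60.5 CPM in control. The 3 groups did not overlap, with IR_Pra between the others. NR1D2 fell in IR against control (log2 fold change -2.21 ± 0.36, adjusted p = 0.0391), the only member of the 10 to pass in this comparison with edgeR on all 6 libraries. The IR mean was 21.5% and the IR_Pra mean 49.1% of the control mean. IR_Pra had a log2 fold change of 1.19 ± 0.35 against IR and -1.03 ± 0.35 against control.

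The call for NR1D2 was lost without control 1 (adjusted p = 0.238), control 2 (0.177), IR_Pra 1 (0.101) or IR_Pra 2 (0.101), or with a replicate block (0.0797). Under each of these settings 0 of all genes passed, so that the calls for NPAS2, PPARA and MTERF2 given here were lost there too. It was also lost on the log2(FPKM + 1) scale (0.0577), while the log2 fold change stayed between -2.49 and -1.94 over all 14 alternatives.

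NR1D1 (Entrez 641342, chromosome 12, 22263549 to 22274131) measured 53.7 and 43.6 CPM in IR_Pra, 27.3 and 14.7 CPM in IR, and 80.8 and 46.9 CPM in control. IR lay below the other groups, and IR_Pra overlapped control. The log2 fold change of IR against control was -1.61 ± 0.41 and missed the threshold (adjusted p = 0.0695). That of IR_Pra was 1.21 ± 0.41 against IR and -0.39 ± 0.40 against control. NR1D1 shares part of its span with THRA, a thyroid hormone receptor gene, and the sources used here do not say whether counting used strand. THRA measured 112.5 and 97.3 CPM in IR_Pra, 127.0 and 143.0 CPM in IR, and 95.3 and 104.9 CPM in control (IR against control, 0.43 ± 0.22, adjusted p = 0.248), so its levels in IR lay on the other side of control from those of NR1D1.

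ARNTL and CLOCK, the activating pair, were lowest in IR, and in IR_Pra they overlapped control (CLOCK) or lay above it (ARNTL). ARNTL (Entrez 100037286, chromosome 2, 45895637 to 46025174), which rhythm cannot do without in mice, measured 17.2 and 21.6 CPM in IR_Pra, 9.84 and 8.37 CPM in IR, and 14.4 and 14.7 CPM in control. The groups did not overlap, and ARNTL was the member whose IR_Pra values lay above control while its IR values lay below. Its log2 fold change was -0.68 ± 0.26 in IR against control (adjusted p = 0.149), 1.09 ± 0.26 in IR_Pra against IR and 0.41 ± 0.26 in IR_Pra against control.

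CLOCK (Entrez 100628097, chromosome 8, 54793323 to 54910192), the partner of ARNTL, measured 21.2 and 15.3 CPM in IR_Pra, 4.46 and 8.07 CPM in IR, and 17.9 and 17.7 CPM in control. IR_Pra overlapped control and IR lay below both. The log2 fold change was -1.51 ± 0.37 in IR against control (adjusted p = 0.0645), 1.54 ± 0.37 in IR_Pra against IR and 0.03 ± 0.36 in IR_Pra against control. Its span overlaps TMEM165, which measured 20.9 and 19.5 CPM in IR_Pra, 22.3 and 22.4 CPM in IR, and 19.3 and 15.6 CPM in control.

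**Figure D2:**
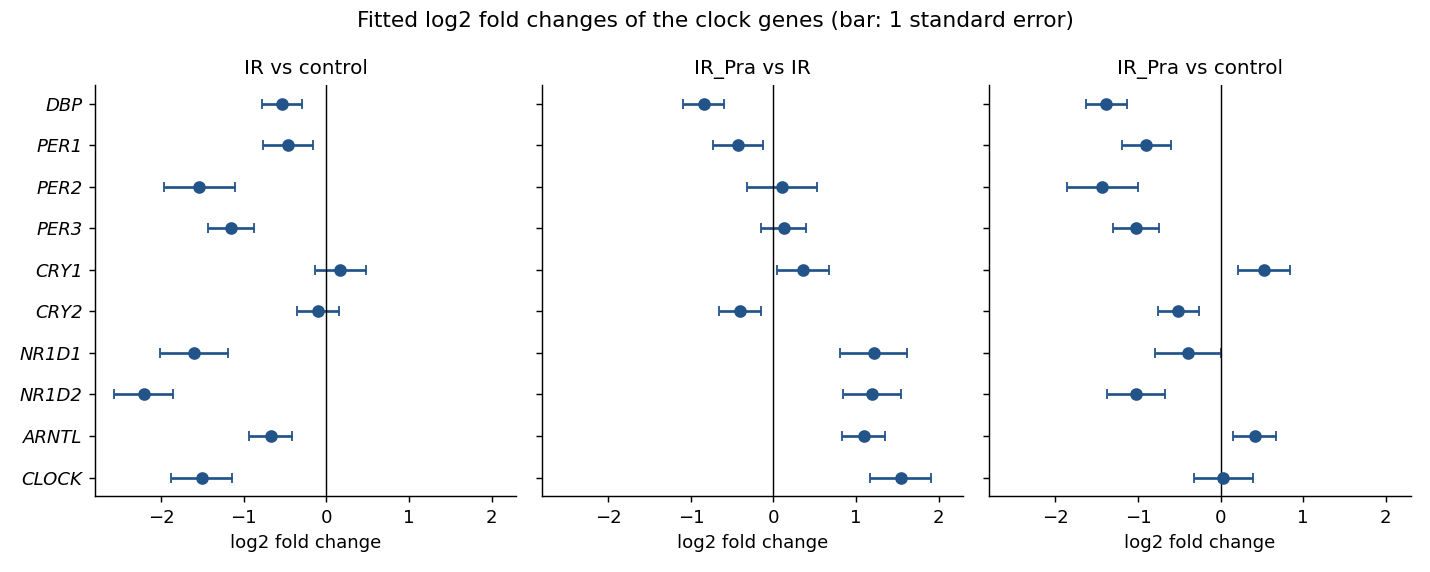
Fitted log2 fold change (horizontal axis) of each clock gene in IR against control, IR_Pra against IR and IR_Pra against control, with bars of 1 standard error. In IR against control 9 of 10 values are negative, with NR1D2 lowest at -2.21 and CRY1 highest at 0.17. In IR_Pra against IR 7 values are positive, among them the activators and the NR1D genes, and DBP, PER1 and CRY2 are negative.

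In IR against control, 1 of the 10 clock genes passed and fell, where 2.68% of the 18197 genes tested fell, 3.39% rose and 6.06% passed in either direction. The median log2 fold change of the 10 was -0.91, beside 0.03 over all genes tested. IR values lay wholly below control for 7 of the 10 and wholly above for 0, where 30% and 29.8% of all genes did so. An unadjusted p under 0.05 with a lower value in IR was seen for 6 of the 10, against 13.8% of all genes. With DESeq2, 5 of the 10 passed and were lower (PER2, PER3, NR1D1, NR1D2 and CLOCK), against 9.3% of all genes with an adjusted p. With edgeR, 9 of the 10 log2 fold changes were negative without IR 1, where CRY2 was positive (0.052). Without IR 2, 9 were negative as well, and CRY1 was positive (0.45). Each of these fits holds 1 IR animal, so effect sizes alone are given for the members here.

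Transcript length differed within the set, from 2.04 kb for DBP and 2.41 kb for ARNTL to 7.75 kb for PER3, as derived from counts and FPKM. With a length trend removed from each library, NR1D2 still passed (log2 fold change -1.97, adjusted p = 0.0408). Under the same setting CLOCK had -1.24 (0.0534), PER2 -1.27 (0.0652), PER3 -0.80 (0.0819) and NR1D1 -1.24 (0.157) in IR against control.

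In both comparisons of IR_Pra the 10 clock genes are given without a test, since DBP in IR_Pra was the value that chose the set. Of the 10 log2 fold changes, 7 were positive in IR_Pra against IR and 3 in IR_Pra against control. Over all genes, edgeR called 0.0055% in IR_Pra against IR and 0% in IR_Pra against control. At an unadjusted p under 0.05, 11.7% of all genes were higher and 12.8% lower in IR_Pra against IR, and 2.4% higher and 1.03% lower in IR_Pra against control. DESeq2 called 6.44% as higher and 7.42% as lower in IR_Pra against IR, and 0.235% as higher and 0.0704% as lower in IR_Pra against control. The comparisons share libraries, so that a low IR mean lowers the value against control and raises that of IR_Pra against IR.

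The balance between an E-box target and the activator could be read within each library as a ratio of FPKM values. The ratio of DBP to ARNTL holds in IR_Pra the low DBP values that chose the set, so its IR_Pra values are a description only. It was 1.55 and 1.07 in IR_Pra, 4.42 and 5.17 in IR, and 5.13 and 3.73 in control, and IR overlapped control. The ratio of NR1D1 to ARNTL was 1.29 and 0.863 in IR_Pra, 1.14 and 0.736 in IR, and 2.31 and 1.32 in control, so that both irradiated groups overlapped below control. The mean log2 CPM of 6 E-box targets (DBP, PER1, PER2, PER3, NR1D1 and NR1D2) minus that of ARNTL was 1.01 and 0.35 in IR_Pra, where it again holds DBP, 1.35 and 1.68 in IR, and 2.35 and 1.85 in control. IR lay below control in this difference without overlap, for these 6 targets alone. CRY1 and CRY2, named above as E-box targets too, were left out of the mean, and IR overlapped control in both. The separation therefore depends on the choice of targets and is not one of the E-box targets as a whole.

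**Figure D3:**
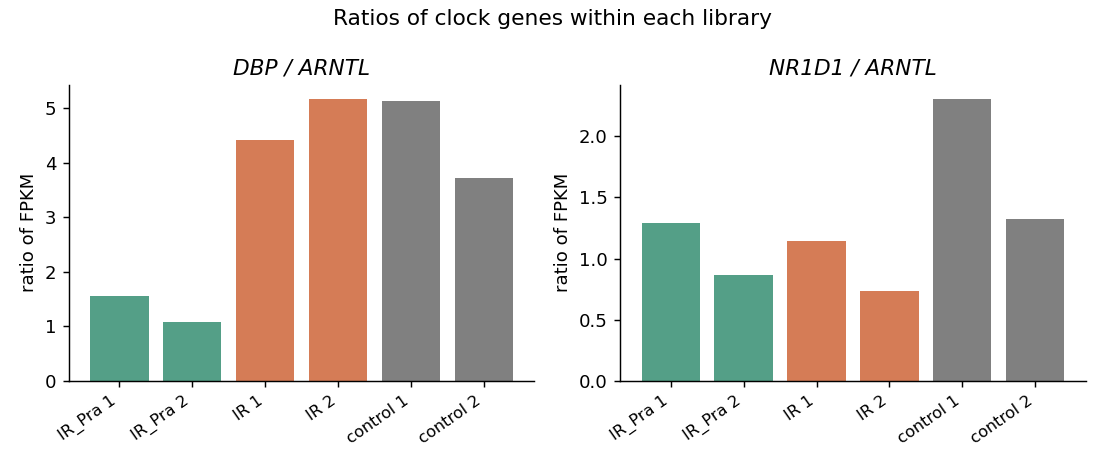
Ratio of FPKM values (vertical axis, from 0) of DBP to ARNTL (left) and of NR1D1 to ARNTL (right) in each of the 6 libraries, with a bar per library. The DBP ratio is between 3.73 and 5.17 in the IR and control libraries (1.55 and 1.07 in IR_Pra, whose low DBP values chose the set), and the NR1D1 ratio is above 1.3 in the control libraries alone.

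Other genes of the clock pathway were taken as a list of 25 partners and regulators, of which 23 had a row and all 23 were tested. Among them 1 fell and 0 rose in IR against control by edgeR (unadjusted p under 0.05 for 7 lower and 2 higher), with a median log2 fold change of -0.55, and 16 of the 23 values were negative. DESeq2 calls there included NPAS2, RORA, HLF and PPARGC1A as lower and NFIL3 and ARNTL2 as higher, where it called 20.4% of all genes in either direction and 16.4% were higher at an unadjusted p under 0.05 by edgeR. In IR_Pra against IR and in IR_Pra against control 0 passed by edgeR (unadjusted p under 0.05 for 4 higher and 1 lower, and for 0 higher and 1 lower). DESeq2 called 2 as higher in IR_Pra against IR (NPAS2 and RORA) and 0 in IR_Pra against control. Of all genes, 11.7% were higher and 12.8% lower against IR at an unadjusted p under 0.05 by edgeR. DESeq2 called 6.44% of all genes as higher against IR. Against control 2.4% of all genes were higher and 1.03% lower at an unadjusted p under 0.05 by edgeR. The list medians were 0.31 against IR and -0.13 against control.

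The gene that passed by edgeR was NPAS2, which can stand in for CLOCK as partner of ARNTL. It measured 60.6 and 76.7 CPM in IR_Pra, 22.3 and 24.4 CPM in IR, and 56.7 and 70.7 CPM in control. NPAS2 fell in IR against control (log2 fold change -1.45 ± 0.25, adjusted p = 0.0408), and IR_Pra overlapped control (0.11 ± 0.24, adjusted p = 0.9998). In IR_Pra against IR it had 1.55 ± 0.25 (adjusted p = 0.0754). Both partners of ARNTL thus had their lowest values in IR.

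The relatives and the opponent of DBP were singled out after their values were seen. TEF and HLF, the other PAR bZIP factors, bind the same D-box, and NFIL3 (E4BP4) represses from it. TEF measured 56.3 and 43.7 CPM in IR_Pra, 53.4 and 65.5 CPM in IR, and 93.9 and 92.7 CPM in control. HLF measured 22.9 and 15.8 CPM in IR_Pra, 9.36 and 14.6 CPM in IR, and 38.1 and 25.1 CPM in control. NFIL3 measured 11.4 and 18.2 CPM in IR_Pra, 15.5 and 25.1 CPM in IR, and 6.61 and 9.26 CPM in control.

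TEF and HLF thus lay below control in both irradiated groups without overlap, and NFIL3 lay above it. In IR against control 30% of all genes lay wholly below and 29.8% wholly above. The share for IR_Pra against control is not given here. In IR against control none of the 3 passed by edgeR, while DESeq2 called HLF as lower and NFIL3 as higher. The edgeR values were log2 fold changes of -0.65 ± 0.24 for TEF (adjusted p = 0.140), -1.40 ± 0.37 for HLF (0.0744) and 1.35 ± 0.39 for NFIL3 (0.0879). In IR_Pra against control the values were -0.90 ± 0.24, -0.71 ± 0.37 and 0.90 ± 0.39, each with an adjusted p of 0.9998. RORA, the nuclear receptor that activates ARNTL from the site NR1D1 and NR1D2 repress, measured 7.97 and 5.96 CPM in IR_Pra, 2.88 and 3.35 CPM in IR, and 7.39 and 5.52 CPM in control (IR against control, -1.05 ± 0.34, adjusted p = 0.110), and it too was chosen after its values were seen.

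**Figure D4:**
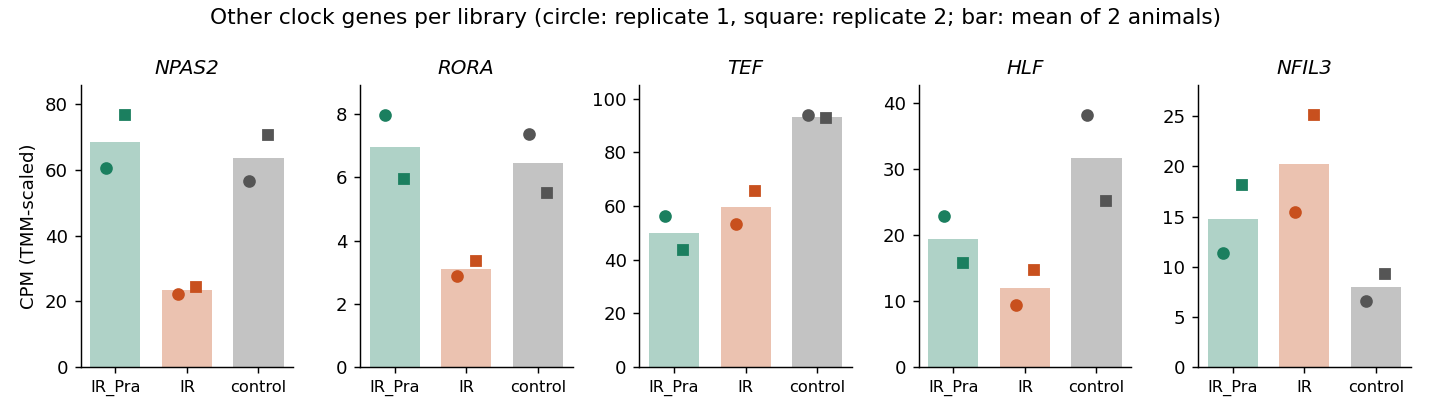
CPM (vertical axis, from 0) of NPAS2, RORA, TEF, HLF and NFIL3 in IR_Pra, IR and control, with a point per animal (circle, replicate 1; square, replicate 2) and a bar at the mean of 2 animals. NPAS2 is at 22.3 and 24.4 CPM in IR and above 56 CPM in every other library, and NFIL3 is above its control values in both irradiated groups.

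Of 15 genes reported in rodents as clock outputs, all 15 had a row and were tested. The comparison of IR with control had 1 that fell and 0 that rose by edgeR (unadjusted p under 0.05 for 2 lower and 0 higher), with a median log2 fold change of -0.27. DESeq2 called 2 as lower there (PPARA and NAMPT). Of all genes, 2.68% fell by edgeR, 13.8% were lower at an unadjusted p under 0.05 and 9.3% were called lower by DESeq2. NAMPT, an enzyme of NAD synthesis, measured 33.1 and 37.5 CPM in IR_Pra, 24.9 and 14.5 CPM in IR, and 54.3 and 42.4 CPM in control (edgeR, IR against control, log2 fold change -1.30 ± 0.33, adjusted p = 0.0676). In both comparisons of IR_Pra 0 passed by edgeR (unadjusted p under 0.05 for 2 higher against IR and for 0 against control). DESeq2 called 1 against IR (PPARA, higher) and 0 against control. Of all genes, 11.7% were higher against IR at an unadjusted p under 0.05 by edgeR, and DESeq2 called 6.44% as higher. The list medians were 0.17 against IR and -0.34 against control. PPARA, a fatty acid sensor that also acts on ARNTL in mouse liver, was the gene that passed by edgeR. It measured 12.3 and 7.39 CPM in IR_Pra, 1.49 and 1.31 CPM in IR, and 16.9 and 12.4 CPM in control. PPARA fell in IR against control (log2 fold change -3.39 ± 0.40, adjusted p = 0.0359), and in IR_Pra against IR it had 2.82 ± 0.39 (adjusted p = 0.0754).

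SLC15A1, the intestinal peptide transporter that DBP drives in rats, was singled out after its values were seen. It measured 235.0 and 240.4 CPM in IR_Pra, 381.9 and 5.64 CPM in IR, and 616.4 and 415.2 CPM in control. IR_Pra lay below control, and the IR animals lay far apart, as they did in the epithelial markers. Its log2 fold change was -1.12 ± 1.45 in IR_Pra against control (adjusted p = 0.9998) and -1.41 ± 1.46 in IR against control (adjusted p = 0.546).

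The genes whose pattern over the 6 libraries was nearest to that of DBP were found by the root mean square difference of centred log2 CPM. They were sought among 13438 tested genes with a mean of at least 1 CPM and a symbol that does not start with LOC. The pattern holds the low DBP values of IR_Pra that chose the set. The nearest 5 were CLCF1, a cytokine of the IL-6 family (difference 0.21), NAT8L, which makes N-acetylaspartate (0.22), SVIP (0.24), HIF3A, a hypoxia-inducible factor subunit (0.25), and ANKRD63 (0.27). PER1 came next among these 13438 genes at rank 6 (0.27), PER3 at rank 83 (0.42) and CRY2 at rank 137 (0.45), while CLOCK was at rank 10934 (1.04). CLCF1 measured 2.28 and 2.55 CPM in IR_Pra, 5.22 and 3.47 CPM in IR, and 6.34 and 5.76 CPM in control. These likenesses describe 6 libraries and were not tested.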

How the data were processed

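The deposited table gives, per the file headers, read counts and FPKM per gene and library. Per the submitters' processing notes, the authors used bcl2fastq 2.20.0, Trimmomatic, HISAT2 2.1.0 and StringTie 2.1.3b, with Sscrofa11.1 and GRCh38 named as builds. Neither the step that made whole counts nor the role of GRCh38 is stated there. The file columns were checked to hold whole counts. Another 24 rows without a gene name (0.00906% to 0.0385% of counts) were left out. Positions are from RefSeq genes of Sscrofa11.1, matched by Entrez ID for all 10 members. No sequence is printed.

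The fit of the counts used edgeR 4.0.16 (R 4.3.3), with filterByExpr (18197 genes left), TMM factors and a quasi-likelihood model of the 6 libraries (3 residual degrees of freedom). Tests were two-sided, with Benjamini-Hochberg adjustment over all genes and a threshold of 0.05. Each library is 1 animal, and means are ± SD over n = 2. The SE of an edgeR log2 fold change was derived from its test. It is the absolute log2 fold change divided by the square root of the quasi-likelihood F statistic. Alternatives used DESeq2 1.42.0, limma 3.58.1, other scalings, no filter, a replicate block, removal of a length trend by loess, and each library left out. Likeness used log2(CPM + 0.01) and genes with a mean of at least 1 CPM, and symbols starting with LOC were left out.

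The members and lists were chosen with earlier results of these data known. The rule for names took all 10 members, list genes past the edgeR threshold, genes overlapping a member, and the 5 genes most like DBP. Other named list genes (TEF, HLF, NFIL3, RORA, SLC15A1, NAMPT and FKBP5, and those named as DESeq2 calls) fall outside it and were chosen after their values were seen.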

Additional observations from a re-analysis of the deposited data

How the results depend on the processing

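With 2 animals per group, counts of genes past the threshold depended on the fit. For IR against control 1103 genes passed (616 higher), 3828 with DESeq2, 475 with library size alone (182 higher), 403 by limma-trend on log2(FPKM + 1), 0 with a replicate block, and between 0 and 5342 with a library left out. For IR_Pra against IR 1 passed, 2543 with DESeq2, 2 with library size alone, 2 with no filter, 0 with a replicate block, and between 0 and 3728 with a library left out. For IR_Pra against control 0 passed in edgeR (623 at an unadjusted p under 0.05) and 65 with DESeq2. Same-numbered animals are different animals, and their deviations correlated at 0.08 (IR and control), -0.09 (IR_Pra and IR) and -0.11 (IR_Pra and control). The legacy quasi-likelihood fit, chosen after seeing the data, gave 790, 1 and 0 genes. Directions turned for 14 of 420 member values, each in a member that did not pass. In IR against control they were CRY1 on log2(FPKM + 1) (-0.38) and without IR 1 (-0.18, in a range of -0.18 to 0.45 with a library left out), and CRY2 with the length trend removed (0.052), without control 2 (0.089) and without IR 1 (0.052, in a range of -0.28 to 0.089). In IR_Pra against IR they were PER2 (-0.21) and PER3 (-0.28) with the length trend removed, and both without IR 1 or IR_Pra 1 (ranges of -0.35 to 0.80 and -0.21 to 0.30). In IR_Pra against control they were NR1D1 without control 1 (range -0.72 to 0.029), and CLOCK with the length trend removed (-0.018) and without IR_Pra 1 (range -0.23 to 0.25). The cause was not tested. DBP in IR against control was negative under all 14 alternatives, from -0.67 to -0.26, and PER1 was negative there from -0.69 to -0.073, neither past the threshold.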

Other observations

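Glucocorticoid-responsive genes were listed because PER1 is itself a target of the hormone receptor. All 10 had a row and were tested. In IR against control 1 rose and 0 fell by edgeR, where 3.39% and 2.68% of all genes did so. An unadjusted p under 0.05 was seen for 1 higher and 0 lower, against 16.4% and 13.8% of all genes. DESeq2 called CEBPD alone, where it called 20.4% of all genes in either direction. The median log2 fold change of the list was -0.26. The gene that rose was CEBPD, a transcription factor of the acute inflammatory response, with 94.4 and 118.9 CPM in IR_Pra, 334.6 and 427.3 CPM in IR, and 85.8 and 79.4 CPM in control (log2 fold change 2.21 ± 0.27, adjusted p = 0.0364), a call lost without either control library, without either IR_Pra library and with a replicate block, when 0 genes passed. FKBP5, a chaperone cofactor of the glucocorticoid receptor chosen after its values were seen, had 58.2 and 56.1 CPM in IR_Pra, 55.0 and 36.7 CPM in IR, and 68.8 and 49.3 CPM in control. In both comparisons of IR_Pra 0 passed by edgeR, with medians of -0.33 against IR and -0.22 against control. DESeq2 called CEBPD as lower against IR, beside 7.42% of all genes, and 0 against control. At an unadjusted p under 0.05 by edgeR, CEBPD alone was lower against IR, beside 12.8% of all genes. PER1, a clock member, is in this list and in its medians. In IR_Pra against control PER1 is given without a test, because DBP in IR_Pra chose the set. No other gene of the list reached an unadjusted p under 0.05 there by edgeR.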
